A study of Homo sapiens with 6 samples.

Results

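The heparin-binding and angiogenic growth factor genes were followed in SW480 cells, a line from a human colorectal adenocarcinoma, with and without knockdown of HPSE. The list was set by name and holds 10 genes, namely VEGFA, VEGFB, VEGFC, PDGFA, PDGFB, FGF2, FGFBP1, MDK, PTN and HDGF, out of 59192 features in the deposited table. Of the 10, 9 had a row, and 7 reached the mean of 10 normalized counts over the 6 libraries that was needed for testing. PTN had no row under its Ensembl identifier and was not analysed here. The HPSE-knockdown group is 3 libraries of SW480 cells with stable Cas9 and a guide RNA against HPSE, and the control group is 3 libraries of SW480 cells with Cas9 and a control guide RNA. Both lines came from SW480 cells made to express Cas9 by lentivirus and selected with puromycin, and each then received its own lentivirus with a guide and EGFP. The labels name the sequenced knockdown line SW480-45, which was taken as the SW480-KD1 line of the study. One guide line stands for the knockdown, so that differences between the lines from the guide and from the line itself cannot be told apart.

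Heparanase, the product of HPSE, cuts the heparan sulfate chains of proteoglycans on cell surfaces and in the extracellular matrix. These chains hold many growth factors through clusters of basic amino acids, and cutting them can release the stored factors. VEGF and PDGF family ligands act on receptor tyrosine kinases of endothelial cells and of mural cells and fibroblasts. FGF2 binds its receptors together with heparan sulfate, FGFBP1 is a secreted carrier of FGFs, midkine (MDK) and pleiotrophin (PTN) form a family of heparin-binding cytokines, and HDGF is a heparin-binding factor that is found largely in the nucleus. RNA levels, as measured here, do not show how much protein is stored or released.

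The ends of the coding sequences of MDK and PDGFB are shown because these members lay farthest apart between the groups in the 2 directions, and because the basic tail of midkine and the retention motif of PDGF-B lie there. Both were read from the GENCODE 29 transcripts on GRCh38, 5′ to 3′ along the transcript, with the codons for lysine and arginine in capitals. The MDK stretch covers codons 94 to 143 and the stop codon of MDK-206, in 2 exons within chr11:46382622-46383494 on the plus strand, and 15 of its 50 codons are for lysine or arginine. The PDGFB stretch covers codons 192 to 241 and the stop codon of PDGFB-201, in 2 exons within chr22:39225723-39230111 on the minus strand, and 14 of its 50 codons are for lysine or arginine.
MDK: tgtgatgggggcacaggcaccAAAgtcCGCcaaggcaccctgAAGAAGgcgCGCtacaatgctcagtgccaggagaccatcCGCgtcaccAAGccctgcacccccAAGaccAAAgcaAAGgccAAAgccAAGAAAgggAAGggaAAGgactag
PDGFB: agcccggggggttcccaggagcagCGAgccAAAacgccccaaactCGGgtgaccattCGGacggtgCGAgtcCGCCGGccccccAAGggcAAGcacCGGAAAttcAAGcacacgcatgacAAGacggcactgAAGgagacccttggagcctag

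Over the whole coding sequence, lysine and arginine codons made up 21.7% in MDK, 21.4% in PTN, 18.1% in VEGFA and 17.0% in PDGFB. In 9 of the 10 members the share was above 11.3%, the median of 19491 coding genes, and the median of the members was 16.5%. VEGFB was the exception with 9.18%, read from the 207 codons of VEGFB-201. One transcript stood for each gene, and the other of the 2 coding transcripts of VEGFB was not read. HDGF combined 15.4% basic codons with 24.6% codons for aspartate and glutamate, the highest acidic share among the members.

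The libraries held between 33221323 and 39802365 reads on the features. The target of the knockdown, HPSE, was at 136, 172 and 146 normalized counts in the HPSE-knockdown libraries and at 269.9, 295 and 246 in the control libraries. The groups did not overlap, and the difference was -0.83 ± 0.14 (SE, n = 3 per group) on the log2(normalized count + 1) scale, with an adjusted p of 0.0547 by limma. Epithelial markers were present in every library, with EPCAM between 16775 and 18783 and KRT8 between 70496 and 90059 normalized counts. CDX2 was far lower, with 19.0 to 40.3. Of the 8 colon epithelium markers, 6 had a row, and KRT18 and CDH1 had none. The summed level of the 6 was 111278 to 119777 in the HPSE-knockdown and 128944 to 136556 in the control libraries. Of the 6, 5 had a negative log2 difference. VIL1 had a positive one of 0.20 without overlap between the groups (limma, adjusted p = 0.225). KRT20, a keratin of differentiated colon epithelium, fell by 0.81 on the log2 scale (limma, adjusted p = 0.0072), and the part of this difference in the results below was not tested. Endothelial markers summed to 30.7 to 54.6 normalized counts in the HPSE-knockdown and 25.1 to 33.9 in the control libraries, with CDH5 at 0 in 5 of the 6, and fibroblast and mural cell markers summed to 361 to 502 and 305 to 344. Most of the latter sum was COL1A1, with 226 to 359 in the HPSE-knockdown and 198 to 252 in the control libraries. COL1A2 had at most 1.05 and LUM at most 3.77 normalized counts in any library, and DCN had no row. LYZ, a leukocyte marker that is also active in gut epithelium, had 59444 to 71955 normalized counts. All libraries are bulk RNA of the cultured SW480 line, so fewer cells of the line in a given state and less RNA per cell cannot be told apart.

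None of the 7 tested members passed an adjusted p of 0.05 by limma, while 0.802% of all 21703 tested features did. At an unadjusted p of 0.05, 3 of the 7 passed, against 16.2% of all features, and the same 3 were without overlap between the groups, against 23.4% of all features. MDK and VEGFA were higher in all HPSE-knockdown libraries than in any control library, and PDGFB was lower. VEGFB, PDGFA, FGFBP1 and HDGF overlapped between the groups. The direction was up in 6 of the 7 members, with a median log2 difference of 0.20, against -0.0048 for all tested features. This median is the value of FGFBP1, whose 95% interval ran from -0.83 to 1.23. A shift of the members as a whole was not tested. With reads recovered from the table, edgeR passed none of the members at an adjusted p of 0.05, against 136 of all 21703 features. DESeq2 passed MDK alone, against 756 of all features.

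**Figure D1:**
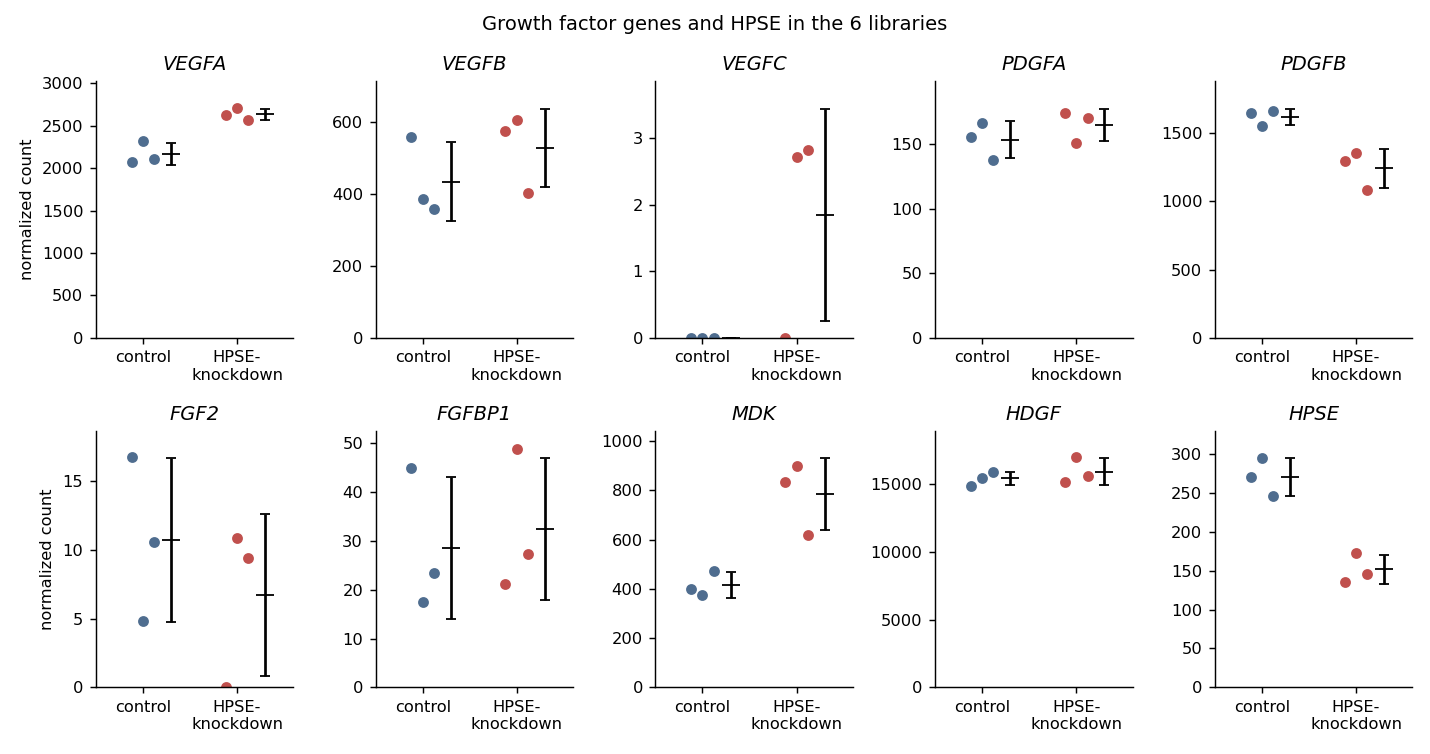
Normalized counts of 9 growth factor genes and HPSE in each library, on axes that start at 0; points are libraries, and the bars beside them are the mean ± SD of 3. MDK, VEGFA, PDGFB and HPSE show no overlap between the control (blue) and HPSE-knockdown (red) libraries, and VEGFC stays at 3 reads or fewer in every library.

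MDK (ENSG00000110492, chr11:46380756-46383837, plus strand), the gene of midkine, differed most. Its normalized counts were 832, 900.4 and 619.9 in the HPSE-knockdown libraries and 397, 374 and 474 in the control libraries. The lowest HPSE-knockdown library, replicate 3, still lay above the highest control library, replicate 3. The means were 784 ± 146 and 415 ± 52.4 (SD, n = 3 each), a ratio of 1.89. On the log2 scale the difference was 0.91 ± 0.16 (SE; 95% interval 0.52 to 1.29), with an unadjusted p of 0.00066 and an adjusted p of 0.0654 by limma. By unadjusted p, MDK ranked 220 among the 21703 features, close to HPSE at 187. The adjusted p was 0.0664 with edgeR and 5.98e-05 with DESeq2, it was 0.0204 when features of any mean were tested, and without HPSE-knockdown replicate 3 it was 0.0484. Over the 6 fits that left out 1 library, the log2 difference stayed between 0.80 and 1.07 and the adjusted p between 0.0484 and 0.218.

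HDGF (ENSG00000143321, chr1:156742107-156766925, minus strand) was the member with the highest level and the smallest difference. Its normalized counts were 15166, 17055 and 15600.2 in the HPSE-knockdown libraries and 14908, 15477 and 15920 in the control libraries, so that the groups overlapped. The log2 difference was 0.05 ± 0.06 (SE; 95% interval -0.10 to 0.19), with an adjusted p of 0.765 by limma, and it was -0.0045 without HPSE-knockdown replicate 2.

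VEGFA (ENSG00000112715, chr6:43770184-43786487, plus strand), the main ligand that drives endothelial growth, had the most reads of the VEGF genes. It had 2631, 2706 and 2568 normalized counts in the HPSE-knockdown libraries and 2076, 2315 and 2110.05 in the control libraries. All HPSE-knockdown values were above all control values, and the spread within each group was narrow, with means of 2635 ± 68.9 and 2167 ± 129 (SD, n = 3 each). The ratio of the means was 1.22, and the log2 difference was 0.28 ± 0.08 (SE; 95% interval 0.11 to 0.46), with an unadjusted p of 0.0060 and an adjusted p of 0.140 by limma. It passed the adjusted threshold in none of the alternatives that were run, with adjusted p-values from 0.102 with DESeq2 to 0.347 in a fit without 1 library. The values are sums over the gene, which has 24 coding transcripts in GENCODE 29, so the splice forms that bind heparin strongly and those that do not were not separated. An antisense gene, AL136131.3, shares 188 exon bases, 1.30% of the exon bases of VEGFA.

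VEGFB (ENSG00000173511, chr11:64234538-64238793, plus strand), a ligand of VEGF receptor 1, had 577, 606 and 403 normalized counts in the HPSE-knockdown libraries and 560, 386 and 357 in the control libraries. Control replicate 1 lay among the HPSE-knockdown values, and HPSE-knockdown replicate 3 among the control values. The ratio of the means was 1.22, as for VEGFA, but the spread was wider, and the log2 difference of 0.29 had a 95% interval from -0.21 to 0.79 (limma, adjusted p = 0.552). VEGFC (ENSG00000150630, chr4:176683538-176792727, minus strand), a ligand of lymphatic endothelium, had 0, 3 and 3 reads in the HPSE-knockdown libraries and 0 in every control library. A count of 0 allows up to 3 reads, so no difference in VEGFC was detectable at this depth and no fold is given.

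PDGFB (ENSG00000100311, chr22:39223359-39244751, minus strand), which encodes the B chain of PDGF, was the only tested member with a lower mean in the HPSE-knockdown libraries. It had 1298, 1353 and 1082 normalized counts in the HPSE-knockdown libraries and 1647, 1557 and 1667 in the control libraries. The groups did not overlap, and HPSE-knockdown replicate 3 was the lowest of all. The means were 1244 ± 143 and 1624 ± 58.7 (SD, n = 3 each), so that the HPSE-knockdown level was 76.6% of the control level. The log2 difference was -0.39 ± 0.10 (SE; 95% interval -0.63 to -0.15), with an unadjusted p of 0.0060 and an adjusted p of 0.140 by limma. Its adjusted p-values ran from 0.0564 with DESeq2 to 0.293 in a fit without 1 library, and the log2 difference in the 6 fits without 1 library from -0.45 to -0.29.

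PDGFA (ENSG00000197461, chr7:497258-520296, minus strand), which encodes the A chain, had 174, 151 and 171 normalized counts in the HPSE-knockdown libraries and 156, 166 and 138 in the control libraries. The groups overlapped, and the log2 difference was 0.11 with a 95% interval from -0.22 to 0.43 (limma, adjusted p = 0.740). The 2 PDGF chains thus lay on opposite sides of 0, and only PDGFB had an interval without 0. The difference between the chains was not tested.

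FGF2 (ENSG00000138685, chr4:122826708-122898236, plus strand) was near the limit of detection, with 0, 10.8 and 9.42 normalized counts in the HPSE-knockdown libraries and 16.7, 4.83 and 10.6 in the control libraries. The mean of the 6 was under 10, and FGF2 was left out of the main test. When features of any mean were tested, the log2 difference was -1.09 with an unadjusted p of 0.251 and an adjusted p of 0.737 by limma. NUDT6, on the opposite strand, shares 804 exon bases with FGF2, or 11.9% of the exon bases of FGF2, and whether strand was used in the counting is not given in the sources used here. FGFBP1 (ENSG00000137440, chr4:15935569-15938740, minus strand) had 21.1, 48.8 and 27.3 normalized counts in the HPSE-knockdown libraries and 45.0, 17.4 and 23.3 in the control libraries. With such overlap its log2 difference of 0.20 had a 95% interval from -0.83 to 1.23 (limma, adjusted p = 0.860), and its sign changed to -0.13 without HPSE-knockdown replicate 2 and to -0.09 without control replicate 2.

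**Figure D2:**
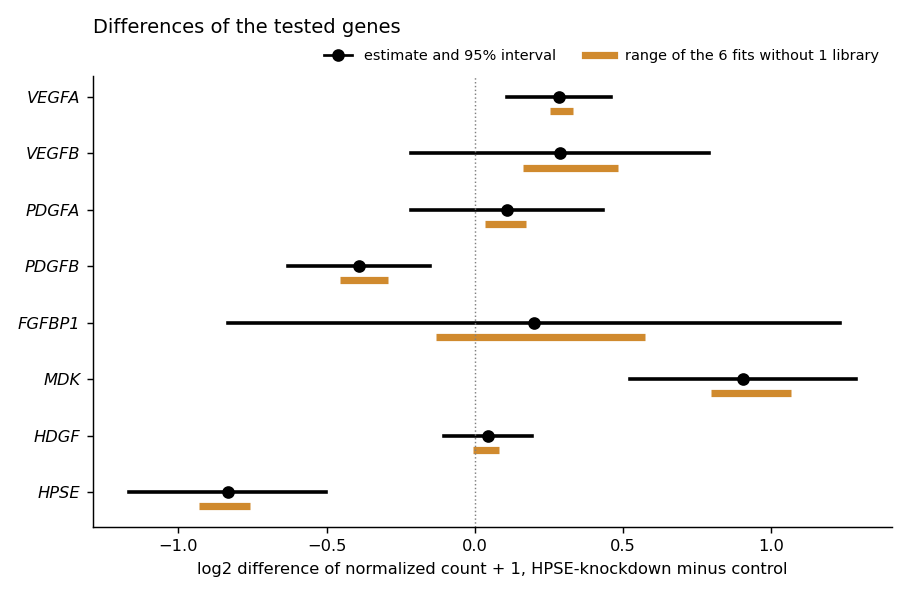
Log2 difference (HPSE-knockdown minus control) of the 7 tested growth factor genes and HPSE; black points and lines are the limma estimate and its 95% interval, and orange bars span the 6 fits that left out 1 library. The intervals of VEGFA, PDGFB, MDK and HPSE do not include 0, and the orange bars of FGFBP1 and HDGF cross it.

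A two-sided exact permutation test of each single member cannot go below 0.1 with 3 libraries against 3. VEGFA, PDGFB and MDK were at this limit, and the exact permutation p-values of the other tested members were between 0.2 and 0.7.

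The order of levels between members depended on the length they were divided by. Per kilobase of the longest coding transcript, HDGF had the highest level in both groups, with 6698 ± 416 normalized counts per kb in the HPSE-knockdown and 6485 ± 213 in the control libraries (SD, n = 3 each). In the control libraries VEGFA followed with 613 ± 36.5, then PDGFB with 464 ± 16.8, MDK with 356 ± 44.9 and VEGFB with 315 ± 79.3, and MDK and VEGFB overlapped. PDGFA with 66.5 ± 6.21 and FGFBP1 with 21.0 ± 10.7 came last among the tested members. In the HPSE-knockdown libraries MDK stood at 672 ± 125 and overlapped VEGFA at 745 ± 19.5, while PDGFB at 356 ± 41.0 overlapped VEGFB at 383 ± 79.4. Per kilobase of all annotated exon bases of the gene, VEGFA stood below these members, and the control means were 432 for PDGFB, 281 for VEGFB, 189 for MDK and 150.2 for VEGFA, with HPSE-knockdown means of 331, 342, 357 and 183. By either length, HDGF had the highest mean and PDGFA and FGFBP1 the lowest among the tested members, and the mean of MDK was below that of PDGFB in the control libraries and above it in the HPSE-knockdown libraries.

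**Figure D3:**
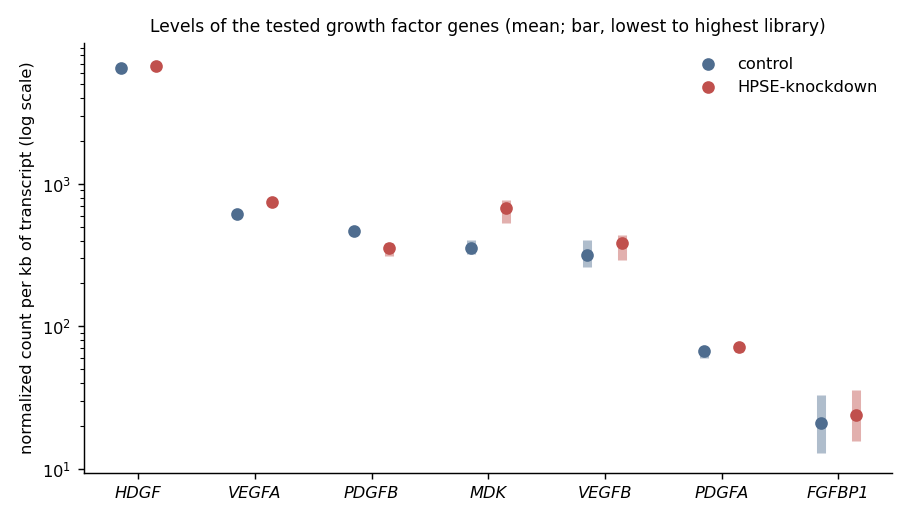
Level of the 7 tested growth factor genes in normalized counts per kb of the longest coding transcript, on a log axis, ordered by the control mean; points are means of 3 libraries, and bars span the lowest to the highest library (hidden by the point where narrow). MDK lies below PDGFB in the control libraries (356 against 464) and above it in the HPSE-knockdown libraries (672 against 356).

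The receptors for these factors are the VEGF, PDGF and FGF receptor kinases with the co-receptors NRP1 and NRP2. ALK, PTPRZ1, LRP1 and NCL, which bind midkine or pleiotrophin, were listed with them, as was LTK. Of the 17 receptor genes, 12 had a row and 9 were tested. None passed an adjusted p of 0.05 by limma, edgeR or DESeq2. At an unadjusted p of 0.05, 2 of the 9 passed, against 16.2% of all features by limma. The median log2 difference of the tested receptor genes was 0.08. LRP1, a large endocytic receptor, had 8834, 9964 and 8939 normalized counts in the HPSE-knockdown libraries and 7893, 7462 and 8332 in the control libraries, with a log2 difference of 0.23 (adjusted p = 0.204). NCL, or nucleolin, a nucleolar protein that also binds midkine at the cell surface, had 41497, 41916 and 44587 normalized counts in the HPSE-knockdown and 47148, 51644 and 51342 in the control libraries, with a log2 difference of -0.23 (adjusted p = 0.124). Neither pair of groups overlapped. Of the 9 tested receptor genes, 3 were without overlap, against 23.4% of all features. The co-receptor NRP1, named because it completes the 3, had a log2 difference of 0.16 (limma, adjusted p = 0.368). It had 946, 949 and 988 normalized counts in the HPSE-knockdown and 874, 836 and 867 in the control libraries.

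Among the receptor kinases, FGFR4 had the highest level, 1173 normalized counts per kb over the 6 libraries, with 3713, 3499 and 3106 normalized counts in the HPSE-knockdown and 4445, 3789 and 3424 in the control libraries (log2 difference -0.17, adjusted p = 0.498). FGFRL1, a receptor without a kinase domain that was singled out after its values were seen, had 152 normalized counts in HPSE-knockdown replicate 3 and between 1809 and 2537 in the other 5 libraries. Of the VEGF receptor kinases, FLT4 had at most 10.4 normalized counts, and FLT1 and KDR had no row under their identifiers and were not analysed here. PDGFRB, the receptor of PDGF-B on mural cells, had 10.5 to 49.9 normalized counts. FLT4 and PDGFRB were also chosen after their values were seen.

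Of 33 related ligand genes, among them the other FGFs, PGF, the angiopoietins and the HDGF-like genes, 21 had a row and 13 were tested. None passed at an adjusted or an unadjusted p of 0.05 by limma, edgeR or DESeq2, and none was without overlap between the groups. Among all features, 16.2% passed the unadjusted threshold by limma and 23.4% were without overlap. The median log2 difference of the tested ligand genes was 0.02, within a range from -0.21 to 0.43. AREG, an EGF family ligand that binds heparin, had the highest level of the list with 11937 to 12980.1 normalized counts in the 6 libraries and a log2 difference of -0.02 (adjusted p = 0.904). HDGFL2 and PSIP1, relatives of HDGF in the nucleus, had log2 differences of 0.21 (adjusted p = 0.388) and 0.02 (adjusted p = 0.970). CCN2, a matricellular factor that binds heparan sulfate, had 154, 117 and 234 normalized counts in the HPSE-knockdown and 139, 97.5 and 125 in the control libraries.

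Of 8 genes for proteases and a cofactor that process these ligands, 5 had a row and all 5 were tested. PCSK5, a proprotein convertase that cleaves growth factor precursors, fell. It had 841, 916 and 949 normalized counts in the HPSE-knockdown libraries and 1541, 1513 and 1448 in the control libraries. The log2 difference was -0.74 ± 0.08 (SE, n = 3 per group), with an adjusted p of 0.0162 by limma, 0.0181 by edgeR and 4.41e-08 by DESeq2. The call was lost without HPSE-knockdown replicate 1 (adjusted p = 0.0639), without HPSE-knockdown replicate 2 (0.0609), without control replicate 1 (0.0676) and without control replicate 2 (0.0813), while the log2 difference stayed between -0.77 and -0.69. It was also lost without the intensity trend in the variance (adjusted p = 0.0924) and with the replicate block (0.114). FURIN, another proprotein convertase, named after its values were seen, had 2572 to 2880.03 normalized counts in the HPSE-knockdown and 2341 to 3032 in the control libraries, which overlapped.

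Of 9 genes for inhibitors of angiogenesis, 5 had a row and all were tested. None passed an adjusted p of 0.05 by limma or edgeR, and 1, SEMA3F, did by DESeq2, which passed 756 of all features. At an unadjusted p of 0.05, 3 of the 5 passed, in both directions, against 16.2% of all features by limma. SEMA3F, a semaphorin that repels endothelial cells, had 61.2, 52.4 and 55.6 normalized counts in the HPSE-knockdown and 28.2, 21.2 and 14.8 in the control libraries. Its log2 difference was 1.40 ± 0.29 (SE), with an adjusted p of 0.0869 by limma and 0.0125 by DESeq2. SEMA3F is in the study's own list of differentially expressed genes from these libraries, so its difference is not independent evidence. THBS1, or thrombospondin 1, had 1483, 1572 and 1505 normalized counts in the HPSE-knockdown and 1813, 1863 and 2069.8 in the control libraries, with a log2 difference of -0.33 (adjusted p = 0.128). SEMA3B, named because it completes the 3, had a log2 difference of 0.46 (adjusted p = 0.195). SEMA3A had the highest level of the list, and its log2 difference was 0.01 (adjusted p = 0.948).

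Genes that receptor kinase signalling induces, such as EGR1, the ETV factors and DUSP6, and its feedback inhibitors of the Sprouty and SPRED families were read as a list of 13, of which 10 had a row and were tested. EGR1, an immediate early transcription factor, rose. It had 3005, 2922 and 3256 normalized counts in the HPSE-knockdown libraries and 1923, 1651 and 1849 in the control libraries. The log2 difference was 0.76 ± 0.09 (SE, n = 3 per group), with an adjusted p of 0.0159 by limma, 0.0164 by edgeR and 1.53e-08 by DESeq2. The call was lost without HPSE-knockdown replicate 1 (adjusted p = 0.0639), without HPSE-knockdown replicate 3 (0.0530) and without control replicate 2 (0.0610), with the log2 difference between 0.70 and 0.81. It was also lost without the intensity trend in the variance (adjusted p = 0.104) and with the replicate block (0.0842).

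At an unadjusted p of 0.05, 2 more genes of the signalling list passed, ETV4 and IL17RD, both named because they complete the 3. With EGR1, 3 of the 10 tested genes thus passed, against 16.2% of all features by limma. ETV4 and IL17RD each had a log2 difference of 0.40, with adjusted p-values of 0.133 and 0.195 by limma. DESeq2 passed ETV4 beside EGR1 at an adjusted p of 0.05, and 756 of all features. The other tested genes of the list, SPRY1, SPRY2, SPRED2, SPRED3, DUSP6, ETV1 and PHLDA1, did not pass even the unadjusted threshold. The median log2 difference of the list was 0.08. PHLDA1, singled out after its values were seen, varied widely within both groups, from 1591 to 6321 normalized counts in the HPSE-knockdown and from 1279 to 7576 in the control libraries.

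VEGFA is a known target of the hypoxia response, and 13 genes of that response were read beside it, of which 10 had a row and were tested. None passed an adjusted p of 0.05 by limma or edgeR, and 1, SLC2A1, did by DESeq2, which passed 756 of all features. At an unadjusted p of 0.05, 2 of the 10 passed, in opposite directions, against 16.2% of all features by limma. SLC2A1, the glucose transporter GLUT1, had 15046, 16096 and 16116 normalized counts in the HPSE-knockdown and 19656, 19552 and 22620.0 in the control libraries, with a log2 difference of -0.39 (adjusted p = 0.0729 by limma and 0.0112 by DESeq2). CA9, a carbonic anhydrase of the cell surface, had 772, 721 and 862 normalized counts in the HPSE-knockdown and 681, 545 and 686 in the control libraries, with a log2 difference of 0.30 (adjusted p = 0.293). EPAS1, a hypoxia-inducible factor, had a log2 difference of -0.30 (adjusted p = 0.550), with control replicate 1 at 3817 and the other 5 libraries between 2002 and 2301 normalized counts. The list as a whole had 5 higher and 5 lower genes and a median log2 difference of 0.05.

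The 3 genes most like MDK across the 6 libraries, among 9703 Ensembl genes whose mean reached 50 normalized counts, were ZBED3 with Pearson's r = 0.996, PTMAP5 with r = 0.994 and VSIR with r = 0.993 on the log2 scale. As the 6 libraries fall into 2 groups of 3 and 408 of these genes had an r above 0.9, this is a description only. VSIR, which encodes an immune checkpoint protein, passed the test, with a mean of 207 normalized counts in the HPSE-knockdown and 91.2 in the control libraries (log2 difference 1.15, adjusted p = 0.0474 by limma). ZBED3 and the pseudogene PTMAP5, whose reads cannot be told with certainty from those of its parent gene, had log2 differences of 0.24 and 0.30 with adjusted p-values of 0.198 and 0.219.

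For the 3 members without overlap, the 3 nearest tested genes on each side were read. Around MDK the log2 differences ran from -0.10 at ARHGAP1 to 0.32 at PHF21A, all smaller than that of MDK itself. Around VEGFA they ran from -0.21 at HSP90AB1, which was without overlap, to 0.25 at TMEM63B. Around PDGFB, all 6 had positive log2 differences, opposite to PDGFB, among them RPL3 with 0.33 (adjusted p = 0.189) and SYNGR1 with 0.80 (adjusted p = 0.0733). None of the 18 neighbours passed an adjusted p of 0.05 by limma. At an unadjusted p of 0.05, 5 passed, namely PHF21A, HSP90AB1, CBX6, RPL3 and SYNGR1, against 16.2% of all features. The same 5 were without overlap between the groups, against 23.4% of all features.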

How the data were processed

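RNA of 6 SW480 cell libraries, 3 per cell line from independent experiments, was sequenced for the authors on an Illumina platform. The sample labels name HISAT2, DESeq2 and GRCh38 without versions, and the paper's text names Cuffdiff. The authors deposited signal values, that is, gene counts divided by 1 size factor for each library. They cover 25927 Ensembl identifiers and 33265 assembler loci, which carry no coordinates or symbols, so reads of a gene may also lie in such a locus. Values were whole multiples of 1 step within 0.02 of a read for 100% of values, and depth was 33221323 to 39802365 reads. A count of 0 allows 3 reads, for counting error only.

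Expression on the log2(normalized count + 1) scale was compared by limma 3.58.1 (R 4.3.3), with the variance trended on intensity and no replicate block, in the 21703 features whose mean reached 10, with Benjamini-Hochberg adjustment over all of them. This pseudocount understates the differences of low genes. Although whole reads could be recovered, the test was kept, with edgeR 4.0.16 and DESeq2 1.42.0 on these reads as alternatives. The other alternatives were a pseudocount of 5, no minimum, a mean of at least 50, TMM, median-of-ratios and quantile scaling, no trend, Ensembl identifiers only, the replicate block and each library left out. The steps were tested on simulated data with differences larger than those of the members, and differences of the members' size were not simulated.

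Positions, transcript lengths and coding sequences are from GENCODE 29. For each gene, the longest coding sequence among its APPRIS principal transcripts was taken. Figures were drawn with matplotlib 3.10.9. The members and lists were chosen with earlier results of these data known. Named genes are HPSE, the members, of each list those with an adjusted p under 0.05, otherwise the 2 with the smallest p and the 2 with the highest level per kb, and the 3 genes most like MDK. Marker genes and neighbours of members are named with their lists, and other genes outside this rule with that remark or within counts.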

Additional observations from a re-analysis of the deposited data

How the results depend on the processing

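The number of members with an adjusted p under 0.05 was 0 by limma and became 1, MDK, without a minimum mean and with DESeq2. It ranged from 0 to 1 when 1 library was left out. The number of all features with an adjusted p under 0.05, 174, became 11 without the intensity trend, 12 with the replicate block and 756 with DESeq2, and ranged from 36 to 104 when 1 library was left out. The cause was not tested.

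Whether same-numbered libraries were paired is not known. Over all tested features, their deviations from the group means correlated at 0.0025, -0.020 and 0.0074, and those of differently numbered libraries between -0.026 and 0.024. Values near 0 cannot exclude pairing, because counting noise also lowers them. With the replicate block, the calls of EGR1 and PCSK5 were lost (limma, adjusted p = 0.0842 and 0.114). Without the trend both calls were lost as well (0.104 and 0.0924).

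Among the 23 single genes followed, the sign of the log2 difference changed for 5. It changed for AREG with quantile normalization (0.0275). Over the fits without 1 library it ran from -0.0512 to 0.0093 for AREG, from -0.13 to 0.57 for FGFBP1, from -0.0045 to 0.0802 for HDGF, from -0.16 to 0.18 for PSIP1 and from -0.0343 to 0.0732 for SEMA3A. The log2 differences of VEGFA, PDGFB and MDK kept their sign in all alternatives. Several of these could not change it. The fits with another minimum mean, without the trend, with Ensembl identifiers only and with the replicate block leave a log2 difference unchanged. Median-of-ratios scaling gave the values of the main fit again. HPSE passed the adjusted threshold without a minimum (0.0451), with a mean of at least 50 (0.0460), with Ensembl identifiers only (0.0462) and with DESeq2 (0.00095). SLC2A1 passed with quantile normalization (0.0455). The spread among the VEGFB libraries left an interval that includes 0, and FGF2 and VEGFC were limited by depth.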
